A study of Mus musculus with 6 samples.

Results

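The genes described here are 10 transcription factor genes of the hair follicle matrix: Foxn1, Msx1, Msx2, Dlx2, Dlx3, Gata3, Foxe1, Sox21, Cux1 and Vdr. They were taken by symbol, and all 10 were found among the 35434 genes of the deposited expression table. The study sequenced RNA from skin lesions of psoriasis mice after a transfer of regulatory T cells (Tregs). Recipients of Ctrl-Tregs gave 3 libraries (Ctrl-Treg), and recipients of Tregs treated with the receptor tyrosine kinase inhibitor lenvatinib gave the other 3 (Lenv-Treg). Both groups therefore carry the disease model and a cell transfer, and the sources used here do not give the strain, the age, the inducing agent or the skin site. Nothing in the labels says that the samples of a group are separate mice, and a p-value below reflects only how far these samples vary, which can be technical.

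The matrix is the population of dividing epithelial cells at the base of a growing (anagen) hair follicle, around the dermal papilla. Its daughter cells move upward and become the hair shaft and the inner root sheath, the sleeve that moulds the shaft. BMP, Wnt and Hedgehog signals act on the matrix, and the factors described here carry the matrix cells into the shaft and sheath programmes. Loss of function of Foxn1, Msx2, Dlx3, Sox21 or Vdr in mice is known to cause hair loss or defective hair shafts.

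Depth was even, at 38704536 to 40248462 reads per library as recovered from the FPKM steps, and libraries correlated at 0.984 to 0.992 within groups and 0.897 to 0.939 between groups across genes (Pearson r on log2 values, genes not being independent replicates). Skin markers were present in all 6, with Krt5 between 781 and 1689.3 FPKM and Col1a1 between 212 and 1374 FPKM (fragments scaled to gene length and library depth). Of 13945 genes tested with limma, 1532 were higher and 4289 lower in Lenv-Treg at a Benjamini-Hochberg adjusted p under 0.05. The median difference over all genes tested was -0.17, and it was 0.00 after median-of-ratios scaling and -0.44 after rescaling to TPM. Median-of-ratios scaling centres the libraries on their median ratio, so a median near 0 follows from the method and the split of calls is drawn toward even. The counts of higher and lower genes were 2417 and 2417 after median-of-ratios scaling, 2232 and 2304 after quantile normalization and 947 and 7970 after rescaling to TPM. A difference, where given, subtracts the Ctrl-Treg mean from the Lenv-Treg mean of log2(FPKM + 1), a scale on which low genes appear to change less than they do. Folds are ratios of mean FPKM.

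Proximal promoters are shown for 4 of the genes, because Msx1, Msx2 and Dlx2 fell by 21.1-fold or more and Foxn1 was the one gene that did not pass the threshold. The sequences are the 250 bases before the RefSeq transcript start, 5′ to 3′ on the gene's strand (all on the minus strand), from build GRCm38.p6, which is not the build of the expression table. RefSeq entries were matched for 8 of the 10 genes, all but Dlx3 and Foxe1. Capitals mark matches, on either strand, to 5 short motifs: the CCAAT box, the GC box with the letters GGGCGG, the TATA box with the letters TATAAA, a homeodomain core with the letters TAATTA, and an E-box with the letters CACGTG.
Msx1, chr5:37824586-37824835: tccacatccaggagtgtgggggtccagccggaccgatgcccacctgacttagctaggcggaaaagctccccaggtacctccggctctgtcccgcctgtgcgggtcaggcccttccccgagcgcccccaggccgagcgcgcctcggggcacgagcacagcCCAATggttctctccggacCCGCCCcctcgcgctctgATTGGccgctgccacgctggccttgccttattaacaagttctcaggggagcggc
Msx2, chr13:53472781-53473030: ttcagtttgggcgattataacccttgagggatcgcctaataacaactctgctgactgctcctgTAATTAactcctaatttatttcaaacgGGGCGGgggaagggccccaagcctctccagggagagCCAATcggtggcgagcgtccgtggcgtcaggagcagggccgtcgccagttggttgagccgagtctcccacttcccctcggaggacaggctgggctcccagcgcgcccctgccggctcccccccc
Dlx2, chr2:71546755-71547004: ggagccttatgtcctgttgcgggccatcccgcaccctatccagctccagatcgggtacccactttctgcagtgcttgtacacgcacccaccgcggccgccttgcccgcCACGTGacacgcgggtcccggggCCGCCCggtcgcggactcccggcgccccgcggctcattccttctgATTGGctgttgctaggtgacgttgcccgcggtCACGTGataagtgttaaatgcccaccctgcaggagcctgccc
Foxn1, chr11:78386609-78386858: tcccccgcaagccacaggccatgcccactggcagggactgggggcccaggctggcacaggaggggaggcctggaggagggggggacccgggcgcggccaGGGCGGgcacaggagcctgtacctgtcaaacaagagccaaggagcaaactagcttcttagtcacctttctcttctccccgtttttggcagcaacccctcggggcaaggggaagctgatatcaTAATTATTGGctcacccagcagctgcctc

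A CCAAT box stood in all 4 of these windows and in 4 of the 8 windows read, against 33.8% of 32851 mouse promoter windows of the same length. A GC box stood in 6 of the 8, against 32.7% of all windows, and no window held TATAAA, which 12.4% of all windows did. TAATTA was found for Msx2, starting at base -187 from the transcript start, and for Foxn1, starting at base -29, against 4.8% of all windows; in Foxn1 it shares 1 base with the CCAAT match on the other strand, at base -24. The E-box stood in 1 of the 8 windows, that of Dlx2, with 2 matches, and in 6.0% of all windows. The windows of Msx1, Msx2, Dlx2 and Foxn1 each held a CCAAT and a GC box match, and these letters describe the sequence without showing that a factor binds there.

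In all, 9 of the 10 genes were lower in Lenv-Treg past the threshold (limma, adjusted p under 0.05), where 30.8% of all genes tested were lower and 41.7% passed in either direction. For the same 9 genes every Lenv-Treg value lay below every Ctrl-Treg value, as for 41.0% of genes tested, and groups were apart in either direction for 55.4%. The other gene, Foxn1, did not pass. The 9 differences ran from -1.29 for Gata3 to -3.58 for Msx2 on the log2(FPKM + 1) scale. All 9 were decreases of at least 1, as were 5.85% of genes tested. Of them, 6 were of at least 2, as were 1.41% of genes tested, with Dlx2 and Foxe1 among the 6. The median over the 10 genes was -2.27, beside -0.17 over all genes tested. All 10 passed the filter on low values, which asks for 0.5 FPKM in 3 libraries, but Dlx2 and Foxe1 only through their Ctrl-Treg values, with no Lenv-Treg library at 0.5 FPKM, so that a fall of these genes was built into their being tested. Of the other 8 genes, 7 fell. In RNA from whole skin, fewer matrix cells and less RNA per cell cannot be told apart.

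**Figure D1:**
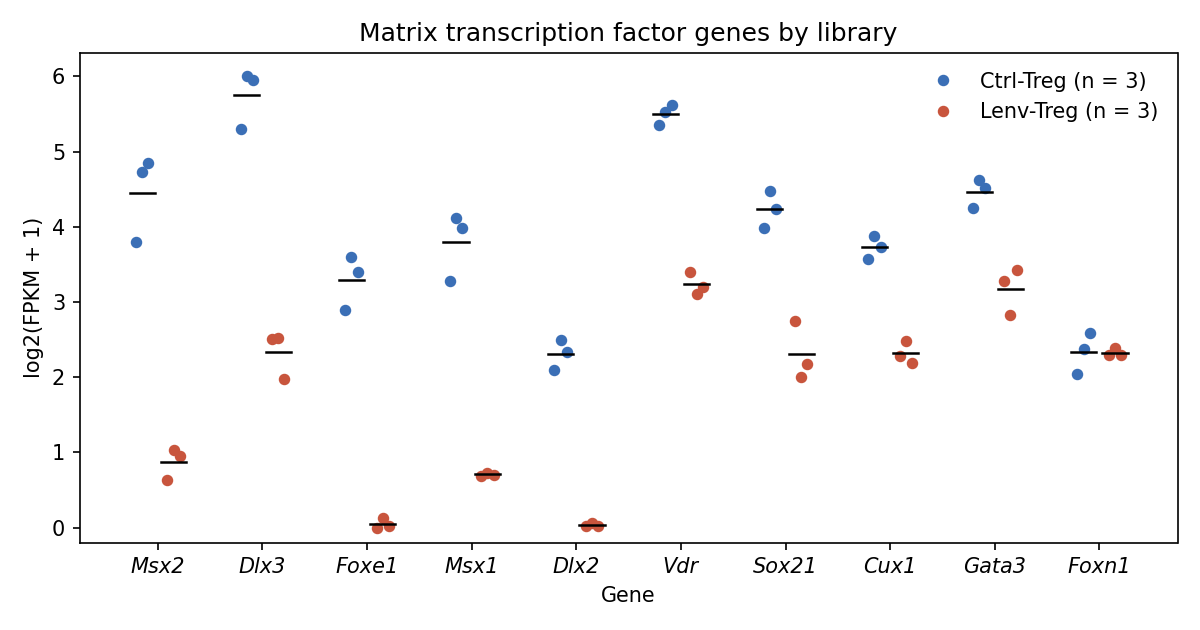
Expression of the 10 matrix transcription factor genes as log2(FPKM + 1) (vertical axis) by gene (horizontal axis, ordered by difference), 1 point per library, with bars at group means (n = 3 per group). The points of the groups are apart for 9 genes, with Foxe1 and Dlx2 near 0 in Lenv-Treg, and they overlap for Foxn1.

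The Msx homeobox genes, which act early in the matrix, fell together. Msx2, which is known to act upstream of Foxn1 in the follicle, was at 12.9, 25.4 and 27.7 FPKM in the Ctrl-Treg libraries and at 0.544, 1.05 and 0.934 FPKM in the Lenv-Treg libraries. All 3 Lenv-Treg libraries stood far below the lowest Ctrl-Treg library. The group means were 22.0 ± 7.97 and 0.841 ± 0.264 FPKM (SD, n = 3 each), a 26.2-fold decrease (log2 difference -3.58, SE 0.27, limma adjusted p = 0.000126). Msx1, its close relative, stood at 8.70, 16.4 and 14.8 FPKM in Ctrl-Treg and at 0.609, 0.656 and 0.628 FPKM in Lenv-Treg. The Lenv-Treg values of Msx1 lay close together, with a coefficient of variation of 3.78% against 30.6% in Ctrl-Treg. Its decrease was 21.1-fold (-3.09, SE 0.21, limma adjusted p = 8.42e-05). The ratio of Msx2 to Msx1 within a library spanned 1.49 to 1.87 for Ctrl-Treg and 0.893 to 1.59 for Lenv-Treg, and these ranges overlapped.

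The Dlx homeobox genes of the list fell as well, Dlx2 by the larger fold. Dlx3, which is needed for shaft and inner root sheath formation and is also expressed in differentiating epidermis, was at 38.6, 63.5 and 61.2 FPKM in Ctrl-Treg and at 4.71, 4.72 and 2.93 FPKM in Lenv-Treg. It had the highest mean of the 10 genes in Ctrl-Treg and fell 13.2-fold (-3.42, SE 0.23, limma adjusted p = 7.71e-05). Dlx2 was at 3.28, 4.62 and 4.06 FPKM in Ctrl-Treg, the group's reads being 1161. In Lenv-Treg it was at 0.0101, 0.0402 and 0.0102 FPKM, from 1, 4 and 1 reads. The fall of Dlx2 (-2.28, SE 0.12) was 197-fold by means, and 392-fold without Lenv-Treg replicate 2, which held 4 of the 6 reads. Dlx2 entered the test through its Ctrl-Treg values alone, and no p is given for it. Within a library Dlx2 stood at 0.0664 to 0.0850 of Dlx3 in Ctrl-Treg and at 0.00215 to 0.00852 of it in Lenv-Treg.

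Of the other Dlx genes, read as paralogs and named after their values were seen, Dlx1, the neighbour of Dlx2, and Dlx4, the neighbour of Dlx3, were lower in every Lenv-Treg library than in every Ctrl-Treg library. Dlx1 had 451 reads over the Ctrl-Treg group and 2 over the Lenv-Treg group. Dlx4 had a mean of 2.81 ± 1.07 FPKM in Ctrl-Treg and of 0.0824 ± 0.0356 FPKM in Lenv-Treg. Both entered the test through their Ctrl-Treg values alone, and no p is given for them. Dlx5 rose, from 1.24, 1.04 and 1.53 FPKM to 5.18, 5.69 and 4.96 FPKM, a 4.15-fold increase (1.47, SE 0.11, limma adjusted p = 0.000123). Its difference stayed between 1.40 and 2.06 over the 17 alternative analyses, the scalings included. Dlx6 was listed at 0 in all 6 libraries.

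The forkhead genes moved apart. Foxe1, which responds to Hedgehog signalling in the follicle, was at 6.40, 11.1 and 9.57 FPKM in Ctrl-Treg, the group's reads being 2261. In Lenv-Treg it had 0, 8 and 1 reads, or 0, 0.0933 and 0.0118 FPKM. The decrease (-3.25, SE 0.18) was 257-fold by means. Its size rests on a few reads: leaving out Lenv-Treg replicate 2 made it 1520.7-fold, and leaving out Lenv-Treg replicate 1 made it 171-fold. Foxe1 also entered the test through its Ctrl-Treg values alone, and no p is given for it. An antisense gene overlaps Foxe1 in the GENCODE M21 annotation (Gm12446), and it had 314 reads over the Ctrl-Treg group and 1 over the Lenv-Treg group. The sources used here do not say whether counting used strand, so reads of the 2 genes may not be separated.

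Foxn1, the gene mutated in nude mice and an activator of hair keratin genes in the matrix, also works in the interfollicular epidermis, where it promotes keratinocyte differentiation. It was at 3.11, 4.21 and 5.03 FPKM in Ctrl-Treg and at 3.92, 4.22 and 3.89 FPKM in Lenv-Treg. All 3 Lenv-Treg values lay inside the range of the Ctrl-Treg values. The means were 4.12 ± 0.961 and 4.01 ± 0.181 FPKM, from 1922 and 1905 reads over the groups. The difference was -0.01 (SE 0.14, 95% confidence interval -0.35 to 0.32, limma adjusted p = 0.946), with a sign that turned to 0.16 after median-of-ratios scaling and to 0.22 after quantile normalization and was -0.27 after rescaling to TPM, none past the threshold. That interval excludes decreases of the size of the other 9 genes on this scale.

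**Figure D2:**
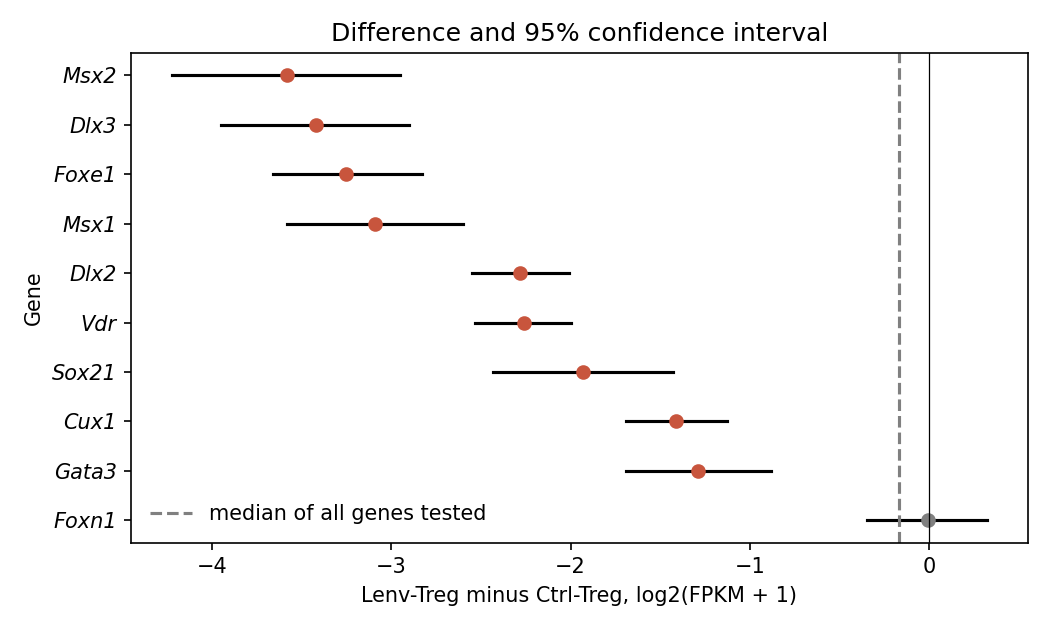
Difference between Lenv-Treg and Ctrl-Treg on the log2(FPKM + 1) scale (horizontal axis) for each gene (vertical axis), points for the estimate and bars for its 95% confidence interval from limma (n = 3 per group), red where the adjusted p is under 0.05. The dashed line is the median of all genes tested, -0.17. The 9 intervals in red lie below it, and that of Foxn1 spans it. Dlx2 and Foxe1 passed the filter through Ctrl-Treg alone.

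The proportions among the 10 genes differed between the groups within each library. Foxn1 stood at 0.166 to 0.241 of the Msx2 level in Ctrl-Treg and at 4.03 to 7.20 times it in Lenv-Treg, all values being FPKM ratios within 1 library. Against Dlx3 the ratio of Foxn1 ran from 0.0662 to 0.0823 for Ctrl-Treg and from 0.832 to 1.33 for Lenv-Treg. Against Vdr it was 0.0781 to 0.105 and 0.412 to 0.556. These pairs were chosen after their values were seen and are given as descriptions; a ratio within a library does not depend on the scaling between libraries.

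**Figure D3:**
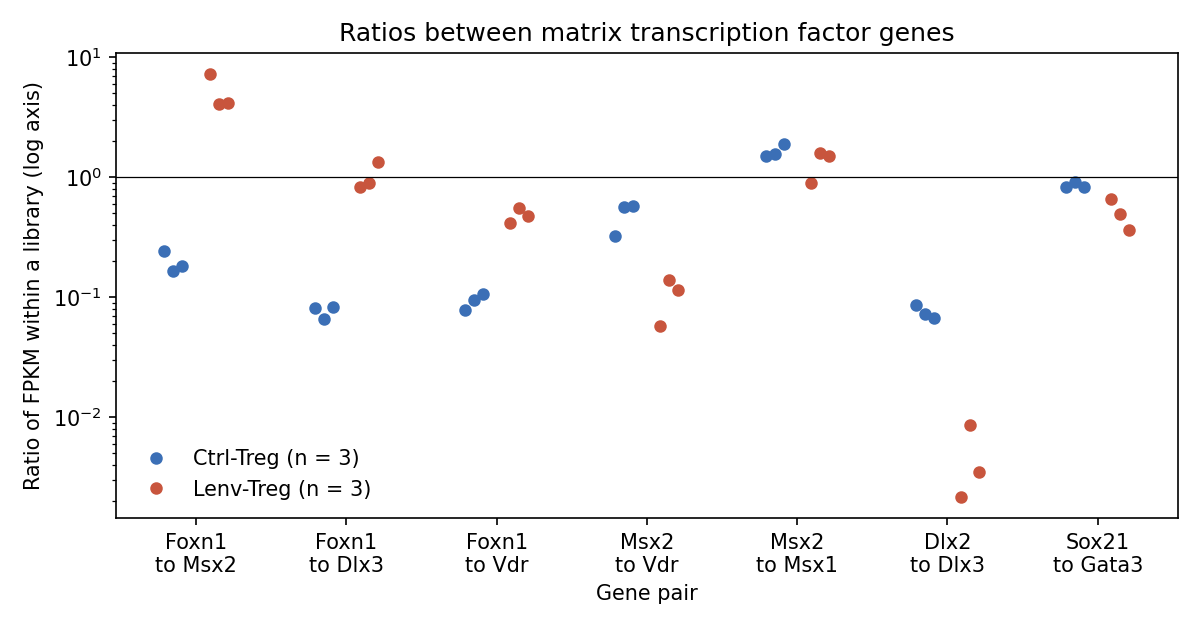
Ratios of FPKM between pairs of matrix transcription factor genes within each library (vertical axis, log scale), by pair (horizontal axis), 1 point per library and 3 per group. The 3 ratios with Foxn1 on top are higher in every Lenv-Treg library, Msx2 to Msx1 overlaps between groups, and Dlx2 to Dlx3 is lower in every Lenv-Treg library.

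The genes known for the inner root sheath and the cuticle fell as well, by 2.59-fold to 4.42-fold. Gata3, which sets inner root sheath fate and is also expressed in epidermis and in T and innate lymphoid cells, was at 18.0, 23.7 and 21.9 FPKM in Ctrl-Treg and at 8.74, 6.07 and 9.73 FPKM in Lenv-Treg. The groups did not overlap, and the decrease was 2.59-fold (-1.29, SE 0.17, limma adjusted p = 0.00128). Cux1, a homeobox gene of the inner root sheath that most tissues also express, was at 10.9, 13.7 and 12.3 FPKM against 3.86, 4.56 and 3.57 FPKM. It fell 3.08-fold (-1.41, SE 0.12, limma adjusted p = 0.000185), and its groups were apart. Sox21, which is needed for the shaft cuticle, was at 14.8, 21.3 and 17.9 FPKM in Ctrl-Treg and at 5.73, 2.99 and 3.51 FPKM in Lenv-Treg. Its decrease was 4.42-fold (-1.93, SE 0.21, limma adjusted p = 0.000528). A non-coding gene on the other strand at Sox21, Gm4675, was at 0.339 ± 0.106 and 0.303 ± 0.0291 FPKM.

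Vdr, the vitamin D receptor, keeps postnatal hair cycles going and is also expressed in epidermal keratinocytes and in immune cells. It was at 39.9, 44.9 and 48.0 FPKM in Ctrl-Treg and at 9.51, 7.58 and 8.22 FPKM in Lenv-Treg. The fall was 5.24-fold (-2.26, SE 0.11, limma adjusted p = 3.1e-05), and its coefficient of variation in Ctrl-Treg, 9.24%, was the lowest of the 10 genes. Of 11 tested genes of its partners and of vitamin D metabolism, 4 fell and 7 did not pass, a share near the 30.8% of all genes tested that were lower. The median was -0.28, and it was -0.57 after rescaling to TPM, where 9 fell, and -0.10 after median-of-ratios scaling, where 2 fell. Cyp27b1, which encodes the enzyme that makes active vitamin D, fell from 0.991 ± 0.109 to 0.0570 ± 0.0320 FPKM (-0.91). Cyp27b1 passed the filter through Ctrl-Treg alone, and no p is given for it. Rxrg, a retinoid X receptor gene, fell from 2.44 ± 0.771 to 0.778 ± 0.0791 FPKM (-0.93, limma adjusted p = 0.00315). Rxra, a heterodimer partner of Vdr, was at 44.2 ± 2.81 and 37.9 ± 2.64 FPKM (-0.21, limma adjusted p = 0.113), and passed as lower after rescaling to TPM (-0.50, limma adjusted p = 0.0102). Hr, the corepressor hairless that binds Vdr, was at 32.3 ± 1.03 and 34.1 ± 2.56 FPKM (0.07, limma adjusted p = 0.562), and passed as higher after median-of-ratios scaling.

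The order of the levels changed between the groups. In Ctrl-Treg the order by mean FPKM was Dlx3, Vdr, Msx2, Gata3, Sox21, Msx1, Cux1, Foxe1, Foxn1 and Dlx2. Neighbours in that order had overlapping ranges except Vdr and Msx2, and Foxe1 and Foxn1. In Lenv-Treg the order was Vdr, Gata3, Dlx3, Sox21, Foxn1, Cux1, Msx2, Msx1, Foxe1 and Dlx2. There the ranges were apart between Gata3 and Dlx3, between Cux1 and Msx2 and between Msx1 and Foxe1. Foxn1 went from the ninth to the fifth place, with means of 4.12 and 4.01 FPKM.

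Among the Ctrl-Treg libraries, replicate 1 had the lowest value for all 10 genes, as it did for 40.1% of genes tested. The same library had the lowest sum of inner root sheath genes (1365.1 FPKM, against 2958.9 and 2982.1) and of hair shaft genes (220.0 FPKM, against 465 and 591). Without Ctrl-Treg replicate 1 the 9 decreases kept their call, with folds of 2.78 for Gata3 to 294 for Foxe1. Among the Lenv-Treg libraries, replicate 2 had the highest value for 7 of the 10 genes and also the highest inner root sheath sum (18.4 FPKM, against 2.04 and 3.98). For Gata3, Sox21 and Vdr, replicate 2 was the lowest instead.

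Genes that the matrix factors act with, or on, were read from lists in the same fit, where 30.8% of all genes tested were lower and 11.0% higher. Of 26 tested other hair follicle transcription factors 16 fell, 3 rose and 7 did not pass (median -0.72). Of them, 6 (Hoxc13, Lef1, Foxi3, Dlx1, Dlx4 and Gli2) passed the filter through Ctrl-Treg alone. Of the remaining 20 genes, which reached 0.5 FPKM in at least 1 Lenv-Treg library, 10 fell and 3 rose. Among the 10, Trps1 (0.599, 0.486 and 0.464 FPKM in Lenv-Treg) passed the filter only with the help of its Ctrl-Treg values. The count of 10 is thus not free of the filter. Egr2 and Sox18 did not pass after median-of-ratios scaling, nor Egr2 and Gata6 after quantile normalization or without Lenv-Treg replicate 2. Egr2 also did not when any 1 Ctrl-Treg library was left out. The rise of Prdm1 did not pass after rescaling to TPM. These genes were named after their values were seen. Gli1 (-3.53), the Hedgehog effector, and Lhx2 (-3.28), a stem cell factor that also stands among the bulge markers, had the smallest p. Ovol1, an epidermal differentiation factor, rose from 19.9 ± 1.37 to 36.0 ± 0.561 FPKM (0.83, limma adjusted p = 0.000461). Hoxc13, a hair keratin activator downstream of Dlx3, and Lef1, the Wnt effector of the matrix, were named after their values were seen. Hoxc13 was at 11.0, 20.2 and 21.3 FPKM in Ctrl-Treg and at 0.319, 0.235 and 0.176 FPKM in Lenv-Treg. Lef1 had means of 6.77 ± 2.39 and 0.142 ± 0.0307 FPKM.

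Structural genes of the sheath and the shaft had far lower sums in Lenv-Treg. The inner root sheath genes summed to 1365.1 to 2982.1 FPKM in Ctrl-Treg and to 2.04 to 18.4 FPKM in Lenv-Treg. Of the 8 tested, 6 reached 0.5 FPKM in at least 1 Lenv-Treg library and all 6 fell. Among these, Krt25, Krt28, Krt71 and Krt73 did not reach it in all Lenv-Treg libraries. They therefore passed the filter only with the help of their Ctrl-Treg values, and no p is given for them. The count of 6 is thus not free of the filter. Krt28, a sheath keratin, was at 90.3, 166 and 172 FPKM in Ctrl-Treg and at 0.586, 1.00 and 0.488 FPKM in Lenv-Treg. The hair shaft genes summed to 220.0 to 591 FPKM in Ctrl-Treg and to 1.59 to 4.24 FPKM in Lenv-Treg. For 12 of the 14 tested shaft genes the filter was passed through Ctrl-Treg alone, so their fall was built into the test and no p is given for them. Krt85, a shaft keratin among these 12, was at 71.9, 128 and 145 FPKM in Ctrl-Treg and at 0.0386, 0.412 and 0.0487 FPKM in Lenv-Treg. Of 18 tested signalling genes of the matrix, 14 fell, 1 rose and 3 did not pass (median -0.88), and 2 of them, Shh and Wnt10b, passed the filter through Ctrl-Treg alone. Shh, the Hedgehog ligand of the matrix, went from 9.32 ± 3.39 to 0.0463 ± 0.0529 FPKM, and Ptch1, its receptor and target, from 19.7 ± 1.59 to 2.95 ± 0.642 FPKM (-2.40, limma adjusted p = 4.32e-05).

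**Figure D4:**
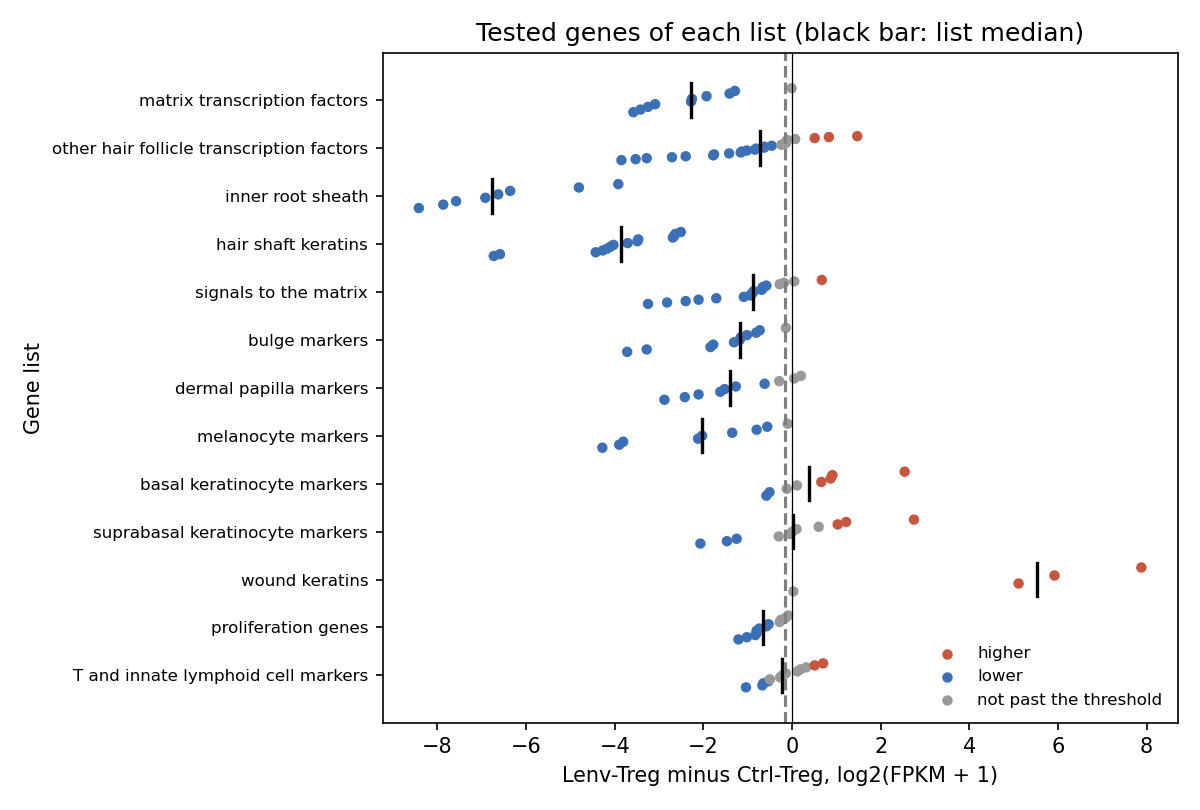
Difference between Lenv-Treg and Ctrl-Treg on the log2(FPKM + 1) scale (horizontal axis) for the tested genes of each list (vertical axis), 1 point per gene, coloured by call, with a black bar at the list median and a dashed line at the median of all genes tested. The medians of the matrix transcription factors (-2.27) and the bulge markers (-1.18) lie left of the dashed line. That of the wound keratins (5.52) lies right of it. Through Ctrl-Treg alone, 12 of the 14 shaft genes plotted passed the filter, as did Dlx2 and Foxe1 of the matrix transcription factors.

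Most markers of the other follicle cells fell as well, where 30.8% of all genes tested were lower and 11.0% higher. Of 11 tested bulge markers 10 fell (median -1.18), of 10 dermal papilla markers 7 fell (median -1.39) and of 9 melanocyte markers 8 fell (median -2.03). Through Ctrl-Treg alone, 2 papilla and 2 melanocyte markers passed the filter. Without them, 5 of 8 papilla and 6 of 7 melanocyte markers fell. Rspo3 and Pmel are counted among those that fell. In Lenv-Treg, Rspo3 was at 0.584, 0.549 and 0.463 FPKM and Pmel at 0.904, 0.795 and 0.352 FPKM. Both therefore passed the filter only with the help of their Ctrl-Treg values, and these counts are not free of the filter. The summed bulge markers, led by Krt15 and Postn, went from 606 to 704 FPKM in Ctrl-Treg to between 155 and 215 FPKM in Lenv-Treg. Without these 2 genes the sum was 169 to 204 FPKM in Ctrl-Treg and 70.4 to 91.2 FPKM in Lenv-Treg. The summed melanocyte markers went from 123 to 193 FPKM in Ctrl-Treg to between 13.8 and 17.5 FPKM in Lenv-Treg. Corin, a dermal papilla protease, went from 4.44 ± 0.230 to 0.0187 ± 0.0140 FPKM. It is 1 of the 2 papilla markers that passed the filter through Ctrl-Treg alone. Crabp1, the papilla marker of highest mean, was at 23.1 ± 6.24 and 26.3 ± 2.24 FPKM (0.20, limma adjusted p = 0.38). Crabp1 was among the 3 papilla markers that did not pass, and it passed as higher without Ctrl-Treg replicate 3. Of 12 proliferation genes, which dividing epidermal and immune cells also express, 8 fell (median -0.66), among them Mki67 (-1.21, limma adjusted p = 0.000345). Of 10 sebaceous gland markers 6 fell and 1 rose (median -0.82), with 3 falling when Ctrl-Treg replicate 1 or 3 or Lenv-Treg replicate 2 or 3 was left out. The part of each of these cell types in the fall of the matrix genes was not tested.

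Keratinocyte markers, which the outer root sheath of the follicle also expresses in part, were mixed. Of 8 basal markers 4 rose and 2 fell (median 0.38, and 0.11 after rescaling to TPM), beside 11.0% higher and 30.8% lower of all genes tested. Their sum, led by Krt14 and Krt5, was 1523.7 to 1956.6 FPKM in Ctrl-Treg and 6131.2 to 6266.7 FPKM in Lenv-Treg, and without these 2 genes it was 121 to 142 FPKM and 148 to 151 FPKM. Of 11 suprabasal markers 3 rose and 3 fell (median 0.01, but -0.28 after rescaling to TPM), and of 4 wound keratins 3 rose (median 5.52). Of the markers that fell, 1 basal marker was left without Ctrl-Treg replicate 1 or 2 or Lenv-Treg replicate 2 or 3, and 1 suprabasal marker without Lenv-Treg replicate 2 or 3. Foxn1, Dlx3, Gata3, Cux1 and Vdr are expressed in these cells too, and their part in the values of those genes was not tested.

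Immune and dermal markers are given beside Gata3 and Vdr, which such cells express. Of 13 tested T and innate lymphoid cell markers 2 rose and 4 fell, shares near the 11.0% higher and 30.8% lower of all genes tested. Their median was -0.22, and it was -0.09 after median-of-ratios scaling and -0.48 after rescaling to TPM. The list's sum, led by Thy1, was 132 to 179 FPKM in Ctrl-Treg and 79.7 to 89.4 FPKM in Lenv-Treg. The T cell receptor complex genes, named after their values were seen, were Cd3d (0.12), Cd3e (-0.27) and Cd3g (-0.50), and none passed (limma adjusted p = 0.688, 0.224 and 0.0677). Cd3g passed as lower with the replicate block (limma adjusted p = 0.0258), after rescaling to TPM (0.00806), with sample weights (0.0262) and without Ctrl-Treg replicate 2 (0.0428) or Lenv-Treg replicate 3 (0.0264). Of 10 macrophage and monocyte markers 4 rose and 1 fell (median 0.43; 7 rose without Ctrl-Treg replicate 1), and of 8 tested neutrophil markers 7 rose (median 2.71), 2 of them (Ly6g and Ngp) having passed the filter through Lenv-Treg alone. The neutrophil sum was 52.3 to 191 FPKM in Ctrl-Treg and 38078.3 to 53772.9 FPKM in Lenv-Treg. Nearly all of it was S100a8 and S100a9, which inflamed keratinocytes also express, and without these 2 genes it was 6.75 to 9.91 FPKM and 211 to 420 FPKM. Of 8 fibroblast markers 1 rose and 3 fell (median -0.18, but 0.03 after median-of-ratios scaling), and of 8 adipocyte markers 6 fell (median -1.13). Without Lenv-Treg replicate 2, the rise of Pdgfrb and the falls of Col3a1, Cfd and Retn did not pass. Pdgfrb and Retn are named after their values were seen. Of 10 skeletal muscle markers 1 fell (median -0.84), and 7 fell without Ctrl-Treg replicate 3. The part of these immune and dermal cells in the results for Gata3 and Vdr was not tested.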

How the data were processed

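RNA of lesional skin was sequenced in 6 libraries, 3 per treatment label. The authors deposited FPKM values, fragments scaled to gene length and depth, in 1 table; per the submitters' processing notes they used build GRCm39, and for the aligner, counter and annotation the sources used here name nothing. All 6 columns matched a sample title. Whole reads were recovered from the steps between low values for 99.99% of genes tested (tolerance 0.005 reads plus 1.5e-07 per read). Genes with at least 0.5 FPKM in at least 3 samples were tested, 13945 in all, with limma 3.58.1 in R 4.3.3 (mean-variance trend) on log2(FPKM + 1), two-sided, without covariates and with Benjamini-Hochberg adjustment over all genes tested. An exact permutation test of 3 against 3 cannot go below p = 0.1, and it was not used. In simulated data for this comparison, 100 of 13944 genes were changed per size. The fit recovered 72% of log2 changes of 1 and 100% of those of 2, and 4.44% of calls were false. In the measured data 5821 genes passed in either direction, and whether these rates hold there was not tested. The members and the 19 other lists were chosen with earlier results of these data known. All members are named; of each other list, the 2 genes of highest mean and the 2 others of smallest p could be named, and names outside this rule are stated as chosen after their values were seen, as are single markers named beside a list. The 17 alternatives covered pseudocount, filter, scaling, variance model, sample weights, the replicate block, limma's voom on recovered reads and leaving out each library.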

Additional observations from a re-analysis of the deposited data

How the results depend on the processing

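The 9 decreases stayed past the threshold and lower in all 17 alternatives (153 of 153 fits), and no alternative called Foxn1. The fits of Dlx2 and Foxe1 are counted here, though both passed the main filter through Ctrl-Treg alone. The difference of Foxn1 was above 0 in 5 of them, at 0.16 with median-of-ratios scaling, 0.22 with quantile normalization, 0.0073 and 0.11 without Ctrl-Treg replicate 2 and 3, and 0.0030 without Lenv-Treg replicate 3 (limma adjusted p between 0.307 and 0.991), and leaving out 1 library gave -0.16 to 0.11 in all; the cause was not tested. The median over the 10 genes, -2.27, was -3.03 and -2.71 with pseudocounts of 0.1 and 0.5, which shrink low values less, -2.89 after rescaling to TPM and -3.06 with voom on recovered reads. Of all genes tested, 4289 were lower and 1532 higher; the counts were 7970 and 947 after rescaling to TPM, 2417 and 2417 after median-of-ratios scaling and 2304 and 2232 after quantile normalization. Leaving out 1 library gave 2780 (without Lenv-Treg replicate 2) to 3900 lower and 1152 to 1447 higher. The replicate number in the titles is not said to pair samples: same-numbered libraries deviated together with r = 0.196, -0.011 and 0.328 across genes, and not every library correlated best with its own number. With the replicate block 9 genes of the list fell, and 4270 genes were lower and 1637 higher. In Lenv-Treg, Dlx2 and Foxe1 rest on 6 and 9 reads over the group, so their folds are uncertain by counting alone.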

Other observations

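The genes whose pattern over the 6 libraries was most like that of Foxn1 were Rbp7, a retinoid-binding protein gene (Pearson r = 0.985 on log2(FPKM + 1)), Wdr54 (r = 0.967) and Dnajc24 (r = 0.955). None of these passed the test (limma adjusted p = 0.82, 0.928 and 0.811). They are the top of many correlations over only 6 libraries, so a high r can come from the picking alone. For Foxn1, 0 genes had an r over 0.99. For Gata3 they were Rida (r = 0.999), Sox12, a gene of the Sox family (r = 0.999), and Tmem177 (r = 0.998). For Vdr they were Mex3a, Trabd2b and Ccnd2, which encodes cyclin D2; Ccnd2 fell from 39.4 to 5.25 FPKM (-2.69, limma adjusted p = 2.73e-05, r = 0.999). For Gata3 and Vdr the likeness is set mainly by the distance between the groups, and 52 and 282 genes had an r over 0.99.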
